A study of Mus musculus with 10 samples.

Results

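The 5 C-type protocadherins, Pcdhac1 and Pcdhac2 of the alpha array and Pcdhgc3, Pcdhgc4 and Pcdhgc5 of the gamma array, were followed through RNA sequencing of neuronal nuclei from mice lacking Mphosph8 or Morc2a. They were chosen by name as the C-type members of the family, and not by their values, and make up 5 of the 58 clustered protocadherins and 5 of the 54532 genes in the count tables. Of these genes 4 passed the filter on low counts, and Pcdhgc3 did not. One of them, Pcdhgc4, rose in the Mphosph8 knockout libraries, to 170.1 ± 27.9 CPM (counts scaled to a common library size, SD, n = 3) from 67.0 ± 22.9 CPM (SD, n = 5) in control. Pcdhac1, Pcdhac2 and Pcdhgc5 passed the test in neither knockout.

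Clustered protocadherins are cell surface adhesion molecules that sit side by side in an alpha, a beta and a gamma array. In the alpha and gamma arrays, each gene has its own large first exon, which carries the promoter and encodes the extracellular domain, and this exon is spliced to small constant exons that all genes of the array share. A neuron picks most of these first exons, called alternate, at random, so that each cell carries its own mixture and recognises cells with the same mixture. The C-type first exons lie at the end of their arrays, resemble each other more than they resemble their alternate neighbours, and are known for promoters that are used regularly by whole classes of neurons. MPP8, the protein of Mphosph8, binds methylated lysine 9 of histone H3 within the silencing complex HUSH, and MORC2A is an ATPase that works with this complex on chromatin.

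The libraries came from nuclei of adult C57BL/6J brains that carried the neuronal nuclear antigen NeuN and were sorted by flow cytometry. All mice were homozygous for a floxed allele. Controls were Mphosph8fl/fl without Nestin-Cre (control replicates 1 to 3) or Morc2afl/fl without Nestin-Cre (control replicates 4 and 5), 3 libraries were Mphosph8fl/fl with Nestin-Cre and 2 were Morc2afl/fl with Nestin-Cre, here called the Mphosph8 knockout and the Morc2a knockout as in their labels. The transgene drives Cre recombinase in precursors of the nervous system, and because no control carried it, an effect of Cre itself and an effect of the deletion cannot be told apart. The labels do not say that each library came from a different mouse, so the p-values measure the spread between these libraries.

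The libraries held between 6686038 and 10764555 counts, and where no read was counted the limit was set at 3 counts, which is 0.281 to 0.446 CPM by library and covers counting error only. Cre removes a single exon of each target, so the counts over the whole gene do not show the deletion itself. Mphosph8 was at 30.65 ± 10.25 CPM (SD, n = 3) in its knockout and 38.7 ± 6.81 CPM (SD, n = 5) in control. Morc2a was higher in the libraries labelled Morc2a knockout (219 ± 5.46 CPM, SD, n = 2) than in control (140.4 ± 14.7 CPM, SD, n = 5). Its log2 fold change there was 0.64 (95% confidence interval 0.34 to 0.94, adjusted p = 0.0916, edgeR). That of Mphosph8 in its own knockout was -0.34 (95% confidence interval -0.82 to 0.15, adjusted p = 0.967, edgeR). Neither gene passed the test, and the cause of the higher Morc2a level was not tested. The summed level of 6 neuronal markers was between 4061 and 5090 CPM in control, between 4255 and 4511 CPM in Mphosph8 knockout and between 3198 and 3574 CPM in Morc2a knockout libraries. Of these markers, Slc17a7, a vesicular glutamate transporter of excitatory neurons, stood at only 14.6 to 24.9 CPM. The markers of inhibitory neurons in the same list stood higher, Gad1 at 649 to 1059 CPM and Gad2 at 167 to 252 CPM. The 3 markers of cerebellar granule cells set libraries apart, with a sum of 312 CPM in control replicate 4 and 164 and 242 CPM in Mphosph8 knockout replicates 1 and 2, against between 1.65 and 14.9 CPM in the other 7. Of the 36 markers of 10 cell types that were tested, edgeR called none in either knockout (4 and 8 at an unadjusted p under 0.05 in Mphosph8 and Morc2a knockout; DESeq2 called 0 and 1, limma-voom 0 and 0).

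All 5 genes lie on the plus strand of chromosome 18 of GRCm38, and each has 4 exons in its longest coding transcript. Pcdhac1 (ENSMUSG00000103255) spans 37090013 to 37187657 and Pcdhac2 (ENSMUSG00000102697) spans 37143503 to 37187657. Pcdhgc3 (ENSMUSG00000102918) spans 37806364 to 37841873, Pcdhgc4 (ENSMUSG00000023036) 37815079 to 37841873, and Pcdhgc5 (ENSMUSG00000102543) 37819513 to 37841873. The first exon of Pcdhac1 starts 69.9 kb after that of the last alternate alpha gene, and that of Pcdhac2 follows 53.5 kb further on. On the gamma array, the first exon of Pcdhgc3 starts 40.8 kb after that of Pcdhga12, and Pcdhgc4 and Pcdhgc5 follow at intervals of 8.67 and 4.43 kb. Bases shared with another gene, in the constant exons and for Pcdhgc3 also in its first exon, make up between 37.9% (Pcdhgc4) and 66.9% (Pcdhgc3) of the exonic bases of these genes in GENCODE M21. Pcdhgc3 had at most 1 count in any library although it shares its constant exons with the abundant Pcdhgc4, so reads on these exons were not counted for it, and levels are given per kilobase of the bases that a gene shares with no other. Stretches of 50 bases were checked in the unshared parts of the longest coding transcript of each gene, and none occurred in a transcript of another gene. Unshared bases outside that transcript were not checked.

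The 5 genes differed widely in level. Per kilobase of unshared exonic bases, the control libraries held 19.3 ± 6.58 CPM of Pcdhgc4, 1.655 ± 0.594 CPM of Pcdhac2, 0.675 ± 0.409 CPM of Pcdhgc5, 0.229 ± 0.211 CPM of Pcdhac1 and 0.0301 ± 0.0414 CPM of Pcdhgc3 (SD, n = 5 for each). Pcdhgc4 was the highest of the 57 clustered protocadherins with unshared bases in each of the 10 libraries on this scale. The neighbours further down the order were less clearly separated: Pcdhac2 stood above Pcdhgc5 in 4 of 5 controls but in 6 of all 10 libraries, and Pcdhgc5 stood above Pcdhac1 in 4 of 5 controls and in 8 of all 10 libraries. Pcdhgc4 alone made up between 82.9% and 97.8% of the counts on C-type genes. The biological coefficient of variation, the spread between libraries of a group beyond counting error, was 0.218 for Pcdhgc4, against a median of 0.278 over all genes tested, and 0.569 for Pcdhgc5, 0.780 for Pcdhac2 and 0.988 for Pcdhac1.

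**Figure D1:**
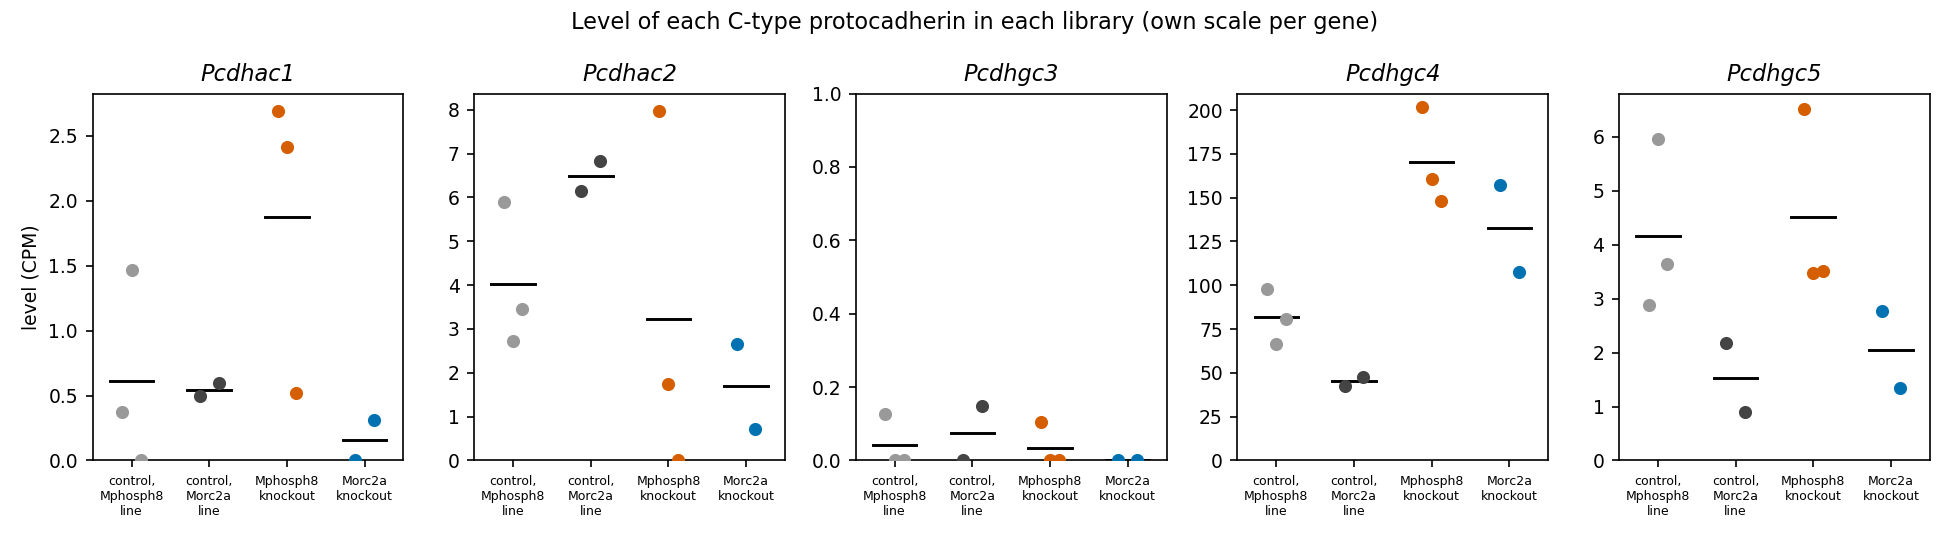
Level in CPM (vertical axis, a separate scale for each gene) of the 5 C-type genes in each of the 10 libraries, with the controls split by floxed line; points are libraries and black lines are group means. All 5 knockout libraries lie above all 5 controls for Pcdhgc4, and both Morc2a knockout libraries lie below all 5 controls for Pcdhac2. For Pcdhac1 and Pcdhgc5 each knockout overlaps the range of the 5 controls, as does the Mphosph8 knockout for Pcdhac2. Pcdhgc3 stays below 0.149 CPM.

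Pcdhgc4, whose protein is carried to the cell surface by other protocadherins and which is known for its role in the survival of inhibitory neurons, was the one C-type gene called. Its level was 97.65, 66.5 and 80.7 CPM in control replicates 1 to 3, 42.65 and 47.7 CPM in control replicates 4 and 5, and 201.5, 160.6 and 148 CPM in the Mphosph8 knockout libraries, from counts between 321 and 1947. The lowest knockout library was thus above the highest control, as for 2.31% of all genes tested. The log2 fold change was 1.34 (standard error 0.22, 95% confidence interval 0.88 to 1.81), which is 2.54-fold, with an adjusted p of 0.0231 (quasi-likelihood test of edgeR, Benjamini-Hochberg adjustment over all genes tested). Pcdhgc4 was the only one of 4 tested C-type genes called higher, against 0.0969% of all 18573 genes tested. Against the 3 controls of the Mphosph8 line alone the log2 fold change was 1.06 (standard error 0.18, adjusted p = 0.0403, edgeR), where 0.0538% of all genes were called. The call was lost when any one of the Mphosph8 knockout libraries was left out (adjusted p = 0.171, 0.113 and 0.0520 without replicates 1, 2 and 3, at log2 fold changes of 1.21, 1.39 and 1.44), and it held when any other single library was left out. Without the 3 libraries rich in granule cell markers, which leaves 1 Mphosph8 knockout library assumed to vary like the others, the log2 fold change was 1.00 (adjusted p = 0.339, edgeR), and the part of granule cells in the difference was not tested further.

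In the libraries labelled Morc2a knockout, Pcdhgc4 was at 157 and 108 CPM, again above all 5 controls, as for 7.59% of all genes tested. All 5 knockout libraries of both kinds thus exceeded every control, which held for 0.63% of all genes tested. The log2 fold change against all controls was 0.98 (standard error 0.25, 95% confidence interval 0.46 to 1.51, 1.98-fold), and the gene was not called (adjusted p = 0.1495, edgeR). None of the 4 tested C-type genes was called in this comparison (1, Pcdhgc4, at an unadjusted p under 0.05; DESeq2 and limma-voom called 0), against 0.0592% of all genes. DESeq2 gave an adjusted p of 0.00931 at the same fold change, which stayed under the fold of 2 required for a call. Against the 2 controls of the Morc2a line alone the log2 fold change was 1.55 (standard error 0.23, 95% confidence interval 1.07 to 2.04, 2.94-fold) and passed the test (adjusted p = 0.0106, edgeR), again beside 0.0538% of all genes. Whether Pcdhgc4 was called in the Morc2a knockout thus depended on the choice of controls.

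The control lines themselves stood apart for this gene. The controls of the Mphosph8 line were at 81.6 ± 15.6 CPM (SD, n = 3) and those of the Morc2a line at 45.2 ± 3.56 CPM (SD, n = 2), with every Mphosph8 line library above both Morc2a line libraries, as for 15.1% of all genes. The log2 difference of the Morc2a line from the Mphosph8 line was -0.85 (standard error 0.21, 95% confidence interval -1.30 to -0.41) and was not called (adjusted p = 0.139, edgeR), with 0.129% of all genes called. A difference between the lines and a difference in how their nuclei were prepared cannot be told apart. With each knockout set against its own line, the effect in Mphosph8 knockout minus that in Morc2a knockout was -0.49 on the log2 scale (95% confidence interval -1.10 to 0.12, adjusted p = 0.702, edgeR, with 0% of all genes called), so the data did not resolve which knockout had the larger effect on Pcdhgc4. In sorted nuclei pooled per library, a higher level may come from more nuclei with the transcript or from more transcript per nucleus, and these cannot be told apart.

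**Figure D2:**
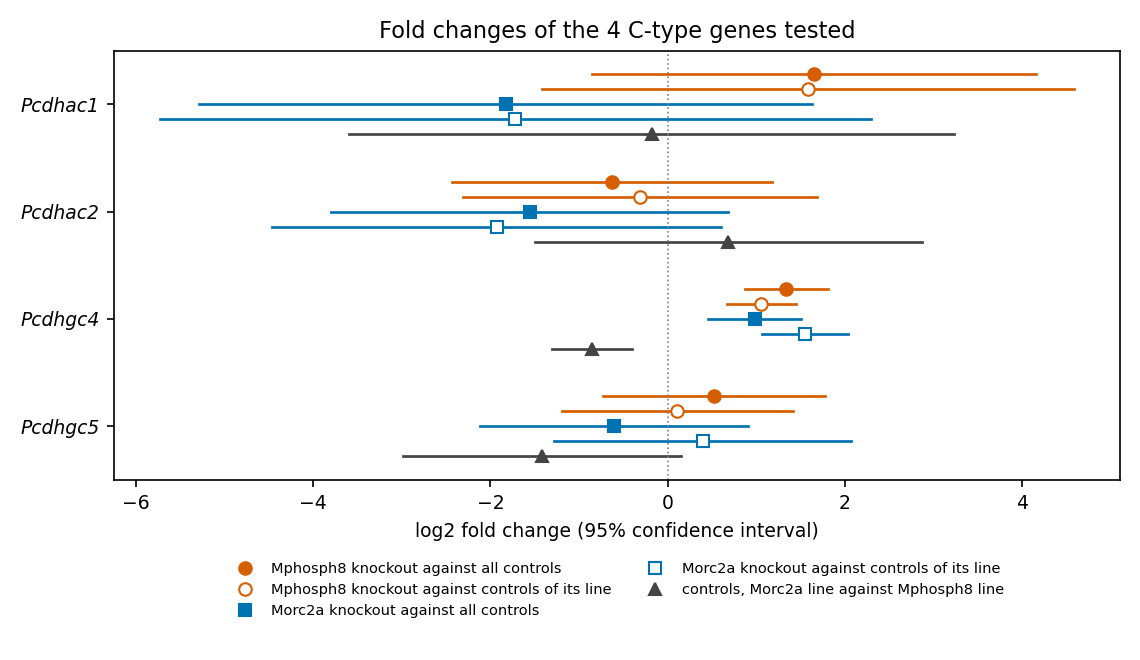
Log2 fold change (horizontal axis) with its 95% confidence interval for the 4 C-type genes tested, each knockout against all controls (filled symbols) and against controls of the same floxed line (open symbols), and the Morc2a line controls against the Mphosph8 line controls (triangles). The intervals of Pcdhgc4 lie above 0 in the 4 knockout comparisons and below 0 between the control lines, and all intervals of the other genes include 0.

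Pcdhgc5, which lies last on the gamma array and whose protein is known as a partner of the GABA-A receptor, was at 2.88, 5.95, 3.65, 2.18 and 0.891 CPM in control replicates 1 to 5. It was at 6.52, 3.48 and 3.52 CPM in Mphosph8 knockout and at 2.77 and 1.34 CPM in Morc2a knockout libraries. Each knockout overlapped the range of the controls. All Mphosph8 knockout libraries lay above both Morc2a knockout libraries, and all controls of the Mphosph8 line lay above those of the Morc2a line. The log2 fold change was 0.52 (standard error 0.59, 95% confidence interval -0.73 to 1.77) in Mphosph8 knockout and -0.60 (standard error 0.72, 95% confidence interval -2.12 to 0.91) in Morc2a knockout (adjusted p = 0.997 and 0.830, edgeR). With single libraries left out these values ran from 0.16 to 0.90 and from -1.21 to -0.18, without a call. As for Pcdhgc4, the fitted difference between control lines was negative (-1.41, standard error 0.74, adjusted p = 0.593), and with Morc2a line controls only, the value in Morc2a knockout was 0.40. The intervals reach fold changes of 3.42 in Mphosph8 knockout, so with this spread between libraries a rise as large as that of its neighbour could not be told from no change.

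Pcdhgc3, whose cytoplasmic part binds Axin1 and which is known for promoting dendrite growth, was at the edge of detection. It had 3 counts in all 10 libraries together, 1 each in control replicates 1 and 5 and in Mphosph8 knockout replicate 1, so that every library was under the limit of 3 counts and no fold change is given. The antisense gene BC037039 overlaps its first exon and leaves 1055 of its 2568 bases unshared, and how the counting treated strand, and with it reads on the other bases, is not given in the sources used here. At this depth and with this counting, Pcdhgc3 was not detectable in any group.

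On the alpha array, Pcdhac2, the C-type gene that serotonergic neurons use for the spacing of their axons, was the more abundant. Its level was 5.89, 2.73, 3.46, 6.135 and 6.83 CPM in control replicates 1 to 5, with counts between 28 and 62. The Mphosph8 knockout libraries were far apart, at 7.97, 1.74 and 0 CPM, from counts of 77, 18 and 0, and the Morc2a knockout libraries were at 2.66 and 0.723 CPM, from counts of 25 and 7. Both Morc2a knockout libraries lay below every control, as for 7.8% of all genes, while the Mphosph8 knockout libraries lay both above and below the controls. The log2 fold change was -0.63 (standard error 0.86, 95% confidence interval -2.44 to 1.18) in Mphosph8 knockout and -1.56 (standard error 1.06, 95% confidence interval -3.80 to 0.69) in Morc2a knockout, and neither passed the test (adjusted p = 0.997 and 0.653, edgeR). Both values rested on single libraries. The first was -2.49 without Mphosph8 knockout replicate 1 and -0.04 without replicate 3, and limma-voom put it at -2.32 (adjusted p = 0.780). The value in Morc2a knockout was -2.76 without replicate 1 and -0.91 without replicate 2 of that knockout. Against controls of the same floxed line, the values were -0.31 in Mphosph8 knockout and -1.93 in Morc2a knockout (adjusted p = 0.995 and 0.676, edgeR). The log2 difference of the Morc2a line controls from the Mphosph8 line controls was 0.69 (standard error 1.035, adjusted p = 0.901, edgeR). Without the 3 libraries rich in granule cell markers, the Mphosph8 knockout library left was replicate 3, with no count of Pcdhac2, and the fitted value of -8.44 (edgeR, adjusted p = 0.242) depends on the small count that edgeR adds. Serotonergic neurons were read from their markers. The 3 serotonergic markers, Tph2, Slc6a4 and Fev, summed to between 3.66 and 9.66 CPM in control, between 6.77 and 7.25 CPM in Mphosph8 knockout and between 5.11 and 5.68 CPM in Morc2a knockout libraries. Both knockout ranges lie within that of the controls, and the part of such neurons in the level of Pcdhac2 was not tested further.

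Pcdhac1, whose protein needs other protocadherins to reach the cell surface, was the rarer alpha C-type gene, with 86 counts over all libraries. It had 3, 15, 0, 5 and 4 counts in control replicates 1 to 5, 26, 25 and 5 counts in Mphosph8 knockout and 0 and 3 counts in Morc2a knockout libraries. In CPM this was 0.376, 1.46, 0, 0.495 and 0.594 in control, 2.69, 2.42 and 0.5175 in Mphosph8 knockout and 0 and 0.310 in Morc2a knockout. Mphosph8 knockout replicates 1 and 2 exceeded every control and replicate 3 did not. The log2 fold change was 1.65 (standard error 1.19, 95% confidence interval -0.85 to 4.16) in Mphosph8 knockout and -1.83 (standard error 1.64, 95% confidence interval -5.29 to 1.64) in Morc2a knockout, and neither passed the test (adjusted p = 0.967 and 0.755, edgeR). The value in Morc2a knockout also rested on single libraries, with -0.89 without replicate 1 of that knockout and -5.50 without replicate 2, where the library left had no count and the size depends on the count that edgeR adds. The 2 high knockout libraries were also among the 3 rich in granule cell markers, and without those 3 libraries the value in Mphosph8 knockout was -0.24. Control replicate 4, the third of them and the one with the most granule cell marker RNA, had 5 counts of Pcdhac1. The part of granule cells in the level of Pcdhac1 was not tested further.

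Set beside the other clustered protocadherins, the C-type genes were mixed. In Mphosph8 knockout the median log2 fold change was 0.93 over the 4 tested C-type genes (1 called, higher), 1.13 over 21 of 22 beta genes (9 called, all higher), 2.64 over 10 of 12 gamma A genes (2 called, both higher), 1.85 over 7 of 7 gamma B genes (0 called by edgeR, DESeq2 and limma-voom, 3 at an unadjusted p under 0.05) and 0.19 over 7 of 12 alternate alpha genes (0 called by each of the 3 tools and 0 at an unadjusted p under 0.05). The median over all genes tested was -0.009. In Morc2a knockout the same medians were -1.08, 0.70, 1.38, 0.39 and 0.54, against -0.014 over all genes, and 2 beta genes were called. Of the 4 C-type genes, 3 were positive in Mphosph8 knockout and 1 in Morc2a knockout, where the beta genes were positive in 17 and the gamma A genes in 9. The nearest alternate neighbour with a comparable level, Pcdhga12, which lies just before the C-type genes of the gamma array, had log2 fold changes of 1.40 (standard error 0.24, adjusted p = 0.0231) and 1.10 (standard error 0.27, adjusted p = 0.129), close to those of Pcdhgc4. The gene with the largest rise among the called beta genes, Pcdhb6, had 3.04 and 2.29 (adjusted p = 0.000281 and 0.0174), and Pcdhb17, the most abundant beta gene, 1.61 and 0.90 (adjusted p = 0.000122 and 0.0528, all from edgeR). Among the alternate alpha genes, Pcdha3 was the most abundant, with log2 fold changes of 1.34 and 1.61, and Pcdha2 had the highest value in Mphosph8 knockout, 1.66, and 1.24 in Morc2a knockout, and neither was called. Pcdhgb1, the most abundant gamma B gene, had 1.86 and 0.32, and Pcdhgb4, the highest of them in Mphosph8 knockout, had 4.03 and -0.11, also without a call. Pcdhga7 had no count in any control and 3.74 ± 3.09 CPM (SD, n = 3) in Mphosph8 knockout, and its fitted change is not given because its size depends on the small count that edgeR adds. The knockouts share their control libraries, so the sets of values are not independent of each other.

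**Figure D3:**
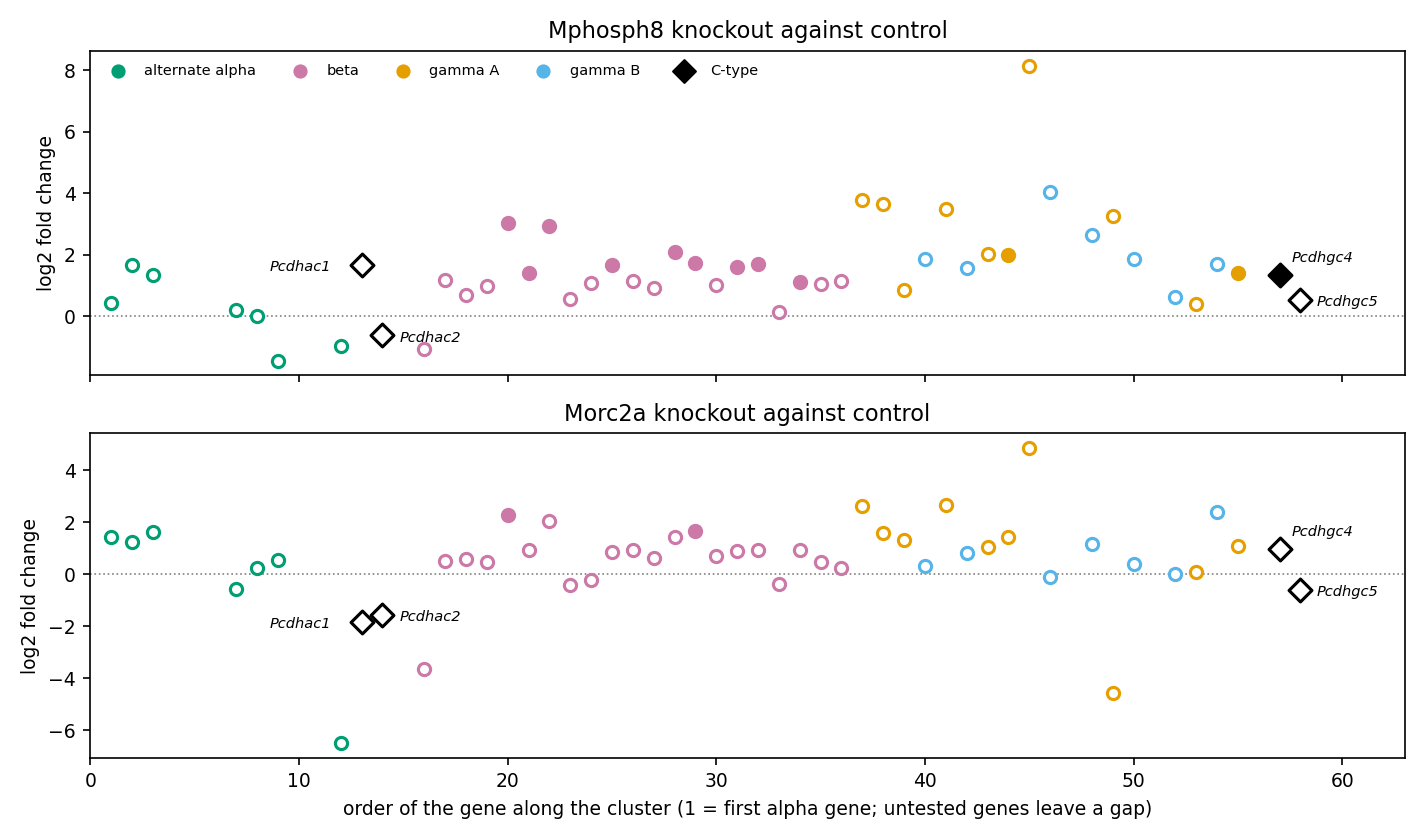
Log2 fold change (vertical axis) of the 49 clustered protocadherins tested, in their order along the cluster (horizontal axis, by place and not to scale), in Mphosph8 knockout (top) and Morc2a knockout (bottom); diamonds are C-type genes, filled symbols are called genes. Pcdhgc4 is called in the upper panel, beside Pcdhga12, and the alpha C-type genes lie on either side of 0 in Mphosph8 knockout and below 0 in Morc2a knockout. The highest point in each panel is Pcdhga7, which had no count in any control.

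To ask whether a C-type gene changed by another factor than its own array, each was divided by the summed counts of the alternate genes of that array in the same library, which removes differences of scaling between libraries. Pcdhgc4 was nearly as abundant as all 19 alternate gamma genes together, at 117%, 88.1%, 86.3%, 94.1% and 121% of their counts in control replicates 1 to 5. It was at 85.8%, 82.1% and 72.6% in Mphosph8 knockout and at 94.7% and 89.4% in Morc2a knockout libraries. All Mphosph8 knockout libraries lay below every control, though narrowly, with 85.8% in the highest of them and 86.3% in the lowest control. The mean log2 ratio differed by -0.33 (two-sided p = 0.0357 by exact permutation of the libraries, which for 3 and 5 libraries cannot be smaller). Against the 3 controls of the Mphosph8 line alone it differed by -0.27 (exact p = 0.1, the lowest possible with 3 and 3 libraries). No share over all genes was computed for such ratios. In Morc2a knockout the log2 ratio differed by -0.12 (exact p = 0.857). The summed alternate gamma genes were at 67.4 ± 23.85 CPM (SD, n = 5) in control and at 212 ± 20.7 CPM (SD, n = 3) in Mphosph8 knockout. Most of this was Pcdhga12, with means of 47.3 and 125 CPM. In Mphosph8 knockout its log2 fold change of 1.40 was close to the 1.34 of Pcdhgc4. The lower ratio is thus not to be read as a fall against Pcdhga12, and a ratio to that gene alone was not computed. With the beta genes in their place the log2 ratio of Pcdhgc4 differed by -0.07 (exact p = 1). Apart from these alternatives, 8 such tests were made, and their p-values are not adjusted for that number.

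Pcdhgc5 stood lower against its array in most knockout libraries than in the controls. It was at 3.46%, 7.89%, 3.90%, 4.80% and 2.26% of the alternate gamma counts in control replicates 1 to 5, at 2.775%, 1.78% and 1.725% in Mphosph8 knockout and at 1.67% and 1.11% in Morc2a knockout libraries. Both Morc2a knockout libraries lay below every control and 1 Mphosph8 knockout library did not. The log2 ratio differed by -1.03 in Mphosph8 knockout (exact p = 0.0714) and by -1.59 in Morc2a knockout (exact p = 0.0952, the lowest possible with 2 and 5 libraries). With 2 counts instead of 0.5 added to both sides, the difference in Mphosph8 knockout was -1.09 (exact p = 0.0357).

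The alpha ratios varied most. Pcdhac2 was at 64.4%, 22.05%, 37.4%, 194% and 124% of the alternate alpha counts in control replicates 1 to 5, at 35.2%, 19.8% and 0% in Mphosph8 knockout and at 24.75% and 5.69% in Morc2a knockout libraries. Both controls of the Morc2a line stood highest, with 62 and 46 counts of Pcdhac2 beside only 32 and 37 counts on the 12 alternate alpha genes. The log2 ratio differed by -3.002 in Mphosph8 knockout (exact p = 0.0714) and by -2.43 in Morc2a knockout (exact p = 0.190). Without Mphosph8 knockout replicate 3, which had no count of Pcdhac2, the first difference was -1.31. The log2 ratio of Pcdhac1 differed by 1.34 in Mphosph8 knockout (exact p = 0.321) and by -2.27 in Morc2a knockout (exact p = 0.190).

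**Figure D4:**
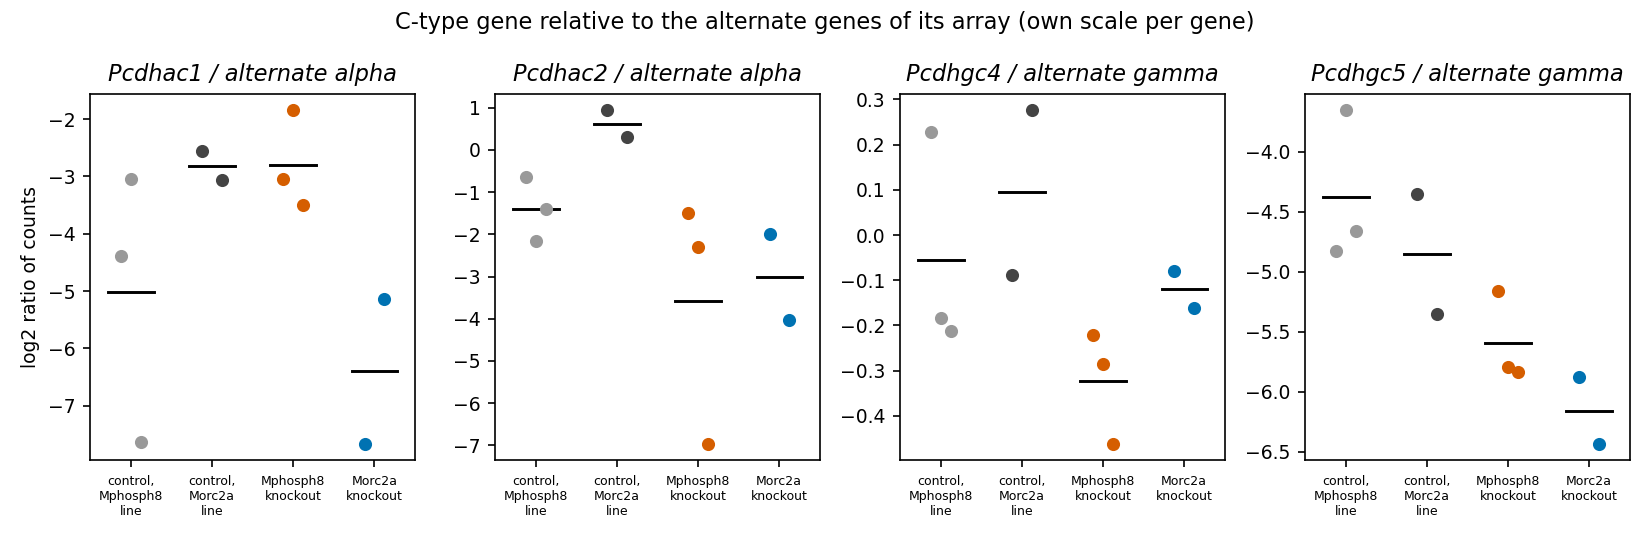
Log2 ratio of the counts of 4 C-type genes to the summed counts of the alternate genes of their array (vertical axis, a separate scale for each gene; 0.5 counts added to both), in each library, with group means as black lines. The Mphosph8 knockout libraries lie below all controls for Pcdhgc4, with a mean difference of -0.33, and the Morc2a knockout libraries lie below all controls for Pcdhgc5; the lowest points of the alpha genes are libraries with no count of the gene.

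The share of the C-type genes in the cluster overlapped between the groups. They took 19.05 ± 3.45% of all clustered protocadherin counts in control (SD, n = 5), 16.6 ± 1.27% in Mphosph8 knockout (SD, n = 3) and 18.5 ± 2.90% in Morc2a knockout (SD, n = 2). Within the C-type genes the share of Pcdhgc4 was 87.6 ± 3.95% in control, 94.97 ± 2.66% in Mphosph8 knockout and 97.25 ± 0.833% in Morc2a knockout libraries. Its lowest value in the knockouts, 92.1%, was just above its highest in control, 91.9%. Pcdhgc4 is part of this sum, so its share rises when its own counts rise, and this is not a result apart from that rise. No share over all genes was computed for it.

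The proteins that clustered protocadherins are known to work with were read from a list of 20 genes, among them the kinases Ptk2 and Ptk2b, the neuroligins Nlgn1 and Nlgn2, the subunits of the WAVE complex that steers actin, and the protease Adam10 that cuts protocadherins. All 20 were tested and edgeR called none in either knockout (1 and 2 at an unadjusted p under 0.05 in Mphosph8 and Morc2a knockout; DESeq2 and limma-voom called 0), with median log2 fold changes of -0.01 and -0.10. The smallest adjusted p values in Mphosph8 knockout were those of Ret, a receptor kinase (log2 fold change 0.71, adjusted p = 0.8795), and of the WAVE subunit Brk1 (-0.21, adjusted p = 0.9005). Those in Morc2a knockout were of Cyfip2, another WAVE subunit (-0.53, standard error 0.14, adjusted p = 0.1655), and of Axin1, a scaffold of Wnt signalling (0.45, standard error 0.21, adjusted p = 0.454).

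The genes whose levels ran most like those of each C-type gene were looked up by Pearson's r of log2 CPM over the 10 libraries, among 12503 genes with a mean of at least 5 CPM. Points share the library and its composition, and with so many genes high values of r are found for any pattern, so these are descriptions. Pcdhgc4 ran closest to Pcdhga12 among the clustered protocadherins (r = 0.977), and outside them to 3222401L13Rik (r = 0.934), a non-coding RNA gene between the beta and gamma arrays, Pqlc3 (r = 0.924) and Tchh (r = 0.923). Pcdhgc5 ran closest to Pcdhb9 (r = 0.958), Rrbp1 (r = 0.974), 4833420G17Rik (r = 0.945) and App (r = 0.931), the gene of the amyloid precursor protein. Pcdhac1 ran closest to Pcdhb22 (r = 0.732), Prelid3b (r = 0.964) and Spint1 (r = 0.899). Pcdhac2 had no close match among the clustered protocadherins compared, where the highest r was -0.026, with Pcdhb9. Outside the cluster it ran closest to Arl5a (r = 0.926), Lhpp (r = 0.923) and Hmgxb3 (r = 0.906). No gene of the alpha array reached a mean of 5 CPM, so none was among the genes compared.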

How the data were processed

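Per the labels and the study's methods, the authors enriched poly(A) RNA from sorted nuclei, trimmed single 50-base reads with Trim Galore 0.5.0, removed abundant sequences with Bowtie2 2.3.4.1, aligned the rest to GRCm38 with STAR and counted reads per gene with featureCounts (Subread 1.6.2). Deposited were raw read counts of 54532 genes in 10 libraries, without normalization. The strand setting, and how reads on several genes were handled, are not given in the sources used here.

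Symbols, exons and shared bases came from GENCODE M21. In R 4.3.3, edgeR 4.0.16 filtered genes (filterByExpr, 18573 kept), scaled libraries by TMM and fitted the 3 groups together by quasi-likelihood, each knockout against all 5 controls. Genes were called at a Benjamini-Hochberg adjusted p below 0.05 over all genes tested and a fold change above 2. A fit of 4 groups compared the control lines and both effects. CPM were computed here from the scaled totals. Ratios to the alternate genes, with 0.5 counts added, were compared by two-sided exact permutation in scipy 1.17.1. The fits were tested on simulated data. DESeq2 1.42.0, limma-voom (limma 3.58.1), other filters, scaling, controls, the replicate number as a block, and each library left out were alternatives. The length of the first exon alone and leaving out the 3 libraries rich in granule cell markers were added after seeing the data.

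The members and lists were chosen with earlier results of these data known. The named genes are the 5 C-type genes, the most abundant gene and the gene with the highest fold change in Mphosph8 knockout of each other array, the partners with the 2 smallest adjusted p in each knockout, and those most like each C-type gene, of which 1 is not reported here. Replicates of a group differed by more than counting error (chi-square per degree of freedom from 9.55 to 38.4 over 14 pairs). Pcdhgc3 was tested only in the alternative without a filter, where it was not called, and was left out of the ratios. No sequences are shown for these genes.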

Additional observations from a re-analysis of the deposited data

How the results depend on the processing

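Among the fold changes, Pcdhgc4 in Mphosph8 knockout was between 1.21 and 1.515 (log2) with single libraries left out, losing its call without each Mphosph8 knockout library, and 1.00 without the 3 libraries rich in granule cell markers, an alternative chosen after seeing the data. In Morc2a knockout it was called at 1.555 with controls of the same floxed line. Changes of sign were seen only below the threshold, for Pcdhac1 in Mphosph8 knockout (-0.24 without the libraries rich in granule cell markers), Pcdhgc5 in Morc2a knockout (0.40 with controls of the same line) and Pcdhac1 between the control lines (-0.18, and from -0.76 to 1.545 with single controls left out, the latter without control replicate 2). DESeq2 gave no adjusted p for Pcdhac1, Pcdhac2 and Pcdhgc5 in Morc2a knockout. The cause of these changes was not tested.

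With the replicate number as a block, Pcdhgc4 was at 1.07 (edgeR, adjusted p = 0.0171) and 0.64 (adjusted p = 0.134) in Mphosph8 and Morc2a knockout, on the same side of the threshold as without it, and the genes called numbered 12 and 46. No knockout library has the number of control replicate 4 or 5, so these Morc2a line controls do not enter the knockout comparisons of this fit. Its values for Morc2a knockout thus come from a comparison with Mphosph8 line controls only. Residuals of the 7 pairs of libraries from different groups with the same number correlated between -0.0275 and 0.0428, and those of the other 24 pairs between -0.0552 and 0.0406, so a shared number was not read as a pair.

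The genes called over the whole table moved more. In Mphosph8 knockout (18) they numbered 87 without a filter, 43 by DESeq2, 10 with controls of the same line, 1 without the libraries rich in granule cell markers and 6 to 21 with single libraries left out (6 without Mphosph8 knockout replicate 2). In Morc2a knockout (11) they numbered 98 without a filter, 24 with at least 10 counts in every library, 27 by DESeq2, 6 with only both groups compared and 3 to 26 with single libraries left out (3 without Morc2a knockout replicate 2, 26 without control replicate 5). Between the control lines (24) they numbered 154 without a filter and 11 to 23 with single controls left out.

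Of the ratios to the array, Pcdhac2 in Mphosph8 knockout ranged from -4.05 to -1.315 with single libraries left out, the latter without Mphosph8 knockout replicate 3. With the beta genes as denominator Pcdhgc4 differed by -0.0746 in Mphosph8 and 0.166 in Morc2a knockout, and with 2 counts added Pcdhgc5 in Mphosph8 knockout passed at -1.09. The ratio of Pcdhgc4 in Mphosph8 knockout stayed between -0.38 and -0.26 with single libraries left out, where the smallest p possible is 0.0571 or more. Control levels per kilobase were 0.851 CPM for Pcdhac2 and 11.98 CPM for Pcdhgc4 over all exonic bases, and 1.19 CPM for Pcdhgc5 over the unshared bases of the first exon alone.

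Low counts limit Pcdhac1 and Pcdhgc3 most, with 86 and 3 counts in all. For Pcdhgc3, low expression, depth and reads lost in counting cannot be told apart.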
